A study of Mus musculus with 4 samples.

Results

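Interferon-stimulated genes, a set of 35 genes given by symbol, were followed across the nonhematopoietic cells of the thymus of Foxn1 LacZ mice. A row was found for 33 of the 35 among the 32285 features of the count matrices. Mx1 and Mx2 were not analysed here. CD45- thymic cells of untreated C57BL/6 mice, all of them 6 months old, had been profiled one by one in droplets by RNA-seq from the 3′ end of transcripts. The groups were WT (2 libraries, wild type, titled mock) and Z/Z (2 libraries, titled mutant), the latter homozygous for the LacZ allele of Foxn1. Foxn1 encodes the transcription factor on which thymic epithelial cells (TECs) depend, and the LacZ allele is hypomorphic. Thymi of several mice were pooled for digestion, CD45+ cells were depleted on magnetic beads and the rest was sorted, so that shares of cells depend on these steps. The labels do not tie single libraries to separate mice, and the p-values measure the spread between libraries. No library had been treated with an interferon, and the name of the set therefore rests on the known biology of its genes and not on a response measured here.

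Interferons are secreted proteins that warn cells of infection. Type I (interferon-α and -β) and type III (interferon-λ) act through receptors that lead to a complex with STAT2 and IRF9, which binds the interferon-stimulated response element (ISRE) in promoters. Type II (interferon-γ) acts through the γ-activated site (GAS) and through IRF1. In the thymus, medullary TECs are known to make interferons without infection, and thymic cells carry a tonic level of interferon-stimulated transcripts. The 33 genes comprised 4 transcription factors, 4 sensors of RNA or other nucleic acids, 2 genes of ISG15 conjugation, 10 antiviral effectors of the IFIT, OAS and related kinds, 6 GTPases inducible by interferon-γ and 7 others.

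The promoters of the interferon-stimulated genes were searched for the elements through which interferons are known to act. ISRE was searched as the letters TTTCNNTTTC or GAAANNGAAA, which are the 2 strands of the same motif, in the 250 bases before the start of each gene in RefSeq (GRCm38.p6). A promoter was listed for 25 of the 33 genes, and 13 of these held an ISRE match (52.0%), against 936 of all 27025 genes (3.46%). GAS, searched as TTCNNNGAA, was matched in 6 of the 25 (24%), against 8.13% of all genes. ISRE was matched in 7 of the 10 promoters listed for genes that were higher in Z/Z TECs and in 6 of the 15 listed for genes that were tested there and not called. Of the 6 genes higher in Z/Z endothelial cells, 3 held it. A match is a description of the letters and not a bound site. The stretches around the matches are shown 5′ to 3′ on the strand of the gene, with the matched letters in capitals, for the called genes whose promoters hold one. They are cut to 30 bases where an annotated exon lies in the longer stretch.
Gbp2, chr3:142620594-142620623 (+ strand): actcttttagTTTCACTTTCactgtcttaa
Gbp3, chr3:142559992-142560021 (+ strand): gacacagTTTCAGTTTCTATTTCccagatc
Gbp7, chr3:142530258-142530317 (+ strand): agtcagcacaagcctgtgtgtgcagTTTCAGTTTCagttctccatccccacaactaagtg
Ifit3, chr19:34583365-34583424 (+ strand): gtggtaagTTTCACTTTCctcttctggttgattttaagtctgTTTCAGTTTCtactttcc
Irgm1, chr11:48871428-48871457 (- strand): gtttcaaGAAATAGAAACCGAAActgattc
Isg15, chr4:156200856-156200915 (- strand): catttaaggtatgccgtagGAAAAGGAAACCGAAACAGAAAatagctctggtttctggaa
Rsad2, chr12:26456538-26456597 (- strand): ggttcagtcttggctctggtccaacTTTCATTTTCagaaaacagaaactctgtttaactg
Stat2, chr10:128270251-128270310 (+ strand): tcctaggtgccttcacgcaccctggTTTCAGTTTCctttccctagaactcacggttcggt
Isg15 and Gbp3 hold overlapping matches, so that 1 run of capitals covers more than 1 match, and Irgm1 does likewise. The match lay 59 bases before the RefSeq start in Gbp2 and 222 bases before it in Stat2. In a second annotation Gbp2 starts at base 142620602 and Irgm1, on the - strand, at base 48871683. By that annotation the Gbp2 stretch crosses the start and the Irgm1 stretch lies inside the gene, so that their place before the start depends on the annotation.

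After filtering, WT 1 kept 1458 cells and WT 2 kept 456, while Z/Z 1 kept 4455 and Z/Z 2 kept 3477. The libraries held 103 to 1956 TECs, 192 to 1210 fibroblasts (FBs), 25 to 697 endothelial cells (ECs) and 11 to 411 mural cells (pericytes and vascular smooth muscle) each. The 6 TEC markers summed to between 4893 and 9439 CPM (UMI counts scaled to a common library size) in TECs and to 115 CPM at most in the other lineages. Lineages had been named by such markers, so that these sums describe the naming and do not test it. A cluster of 978 cells (doublets included), with Epcam in 12.7%, scored best on the FB list. It was placed with TECs by limits on Epcam, Vim, Pdgfra, H2-Aa and Pdpn. WT 2 was the thinnest library, with 25 ECs and 11 mural cells, and median depth per TEC was 16692 and 17803 UMIs in WT against 6743.5 and 7024 in Z/Z. WT 1 and WT 2 shared 202 called barcodes (16.9% of those of WT 2) and the Z/Z libraries 249, against 6 at most between genotypes. Of those kept in both libraries, 16 of 17 in WT and 27 of 32 in Z/Z had the same lineage in both. Between genotypes at most 2 were kept in both. Whether these are shared cells was not tested, so that the libraries of a genotype may not be independent. With each shared barcode counted once, the numbers of members called stayed at 14 in TECs, 1 in FBs, 6 in ECs and 0 in mural cells. Foxn1 stood at 90.3 and 127 CPM in the TECs of the WT libraries and at 51.0 and 68.5 CPM in those of Z/Z 1 and Z/Z 2. Within TEC cluster 1 it stood at 94.3, 172, 117 and 117 CPM in WT 1, WT 2, Z/Z 1 and Z/Z 2. In the other TECs it stood at 84.4, 52.7, 46.5 and 61.7 CPM. The genotypes overlapped in both, and the part of the cluster mix in the gap was not tested.

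ECs held the highest levels of interferon-stimulated genes among the 4 lineages. UMIs were summed per library and lineage, and each lineage was compared with the mean of the other 3 by edgeR's quasi-likelihood F test with the library as a block. In ECs 30 of 33 genes were higher and 0 lower, where 19.5% of all genes tested were higher and 22.3% lower. The median log2 difference of the 33 genes was 1.58, against -0.10 over all genes. The largest differences in ECs were those of 3 antiviral effectors. Oas2, an enzyme that makes the 2-5A messenger which activates RNase L, stood at 43.6, 38.1, 21.5 and 25.1 CPM in the ECs of WT 1, WT 2, Z/Z 1 and Z/Z 2, and its log2 difference from the other lineages was 4.23 ± 0.37 (SE; adjusted p = 1.87e-07). The highest level of Oas2 in any other lineage was 6.33 CPM. Ifit2, which binds viral RNA, stood at 173, 148, 305 and 454 CPM in ECs (log2 difference 4.04 ± 0.24, adjusted p = 2.27e-09). Its level elsewhere was between 5.43 and 26.3 CPM, so that the lineages were far apart. Rsad2 (viperin), an iron-sulfur enzyme that makes a chain-terminating nucleotide, stood at 301, 209.8, 603 and 768 CPM in ECs (log2 difference 3.81 ± 0.24, adjusted p = 3.74e-09).

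**Figure D1:**
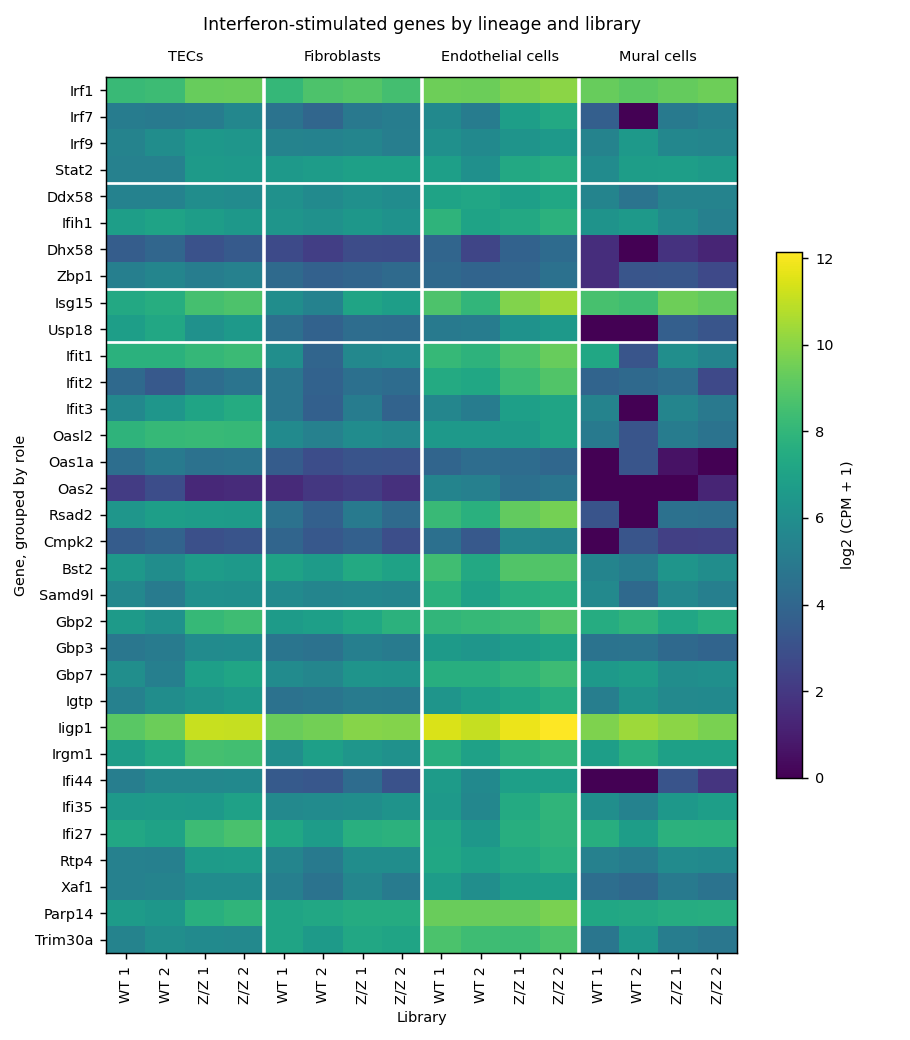
Levels of the 33 interferon-stimulated genes (vertical axis, grouped by role) in the 16 sums of 1 lineage in 1 library (horizontal axis), as color on a scale of log2 (CPM + 1). The EC columns are the brightest for most genes, with 26 of the 33 genes highest on average in ECs (share of all genes not given). Oas1a, Oasl2 and Usp18 are brightest in the TEC columns.

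In TECs 11 genes were higher and 7 lower than the mean of the other lineages, with 29.7% of all genes higher and 24% lower. Both shares were near those of all genes. Oas1a, a second 2-5A synthetase, stood at 19.8, 29.9, 23.0 and 24.1 CPM in TECs of WT 1, WT 2, Z/Z 1 and Z/Z 2 (log2 difference 2.51 ± 0.29, adjusted p = 2.98e-06). ECs held 14.5 to 19.1 CPM of Oas1a, so that much of this difference came from FBs and mural cells, where it did not pass 10.5 CPM. Oasl2, a relative of the OAS enzymes, stood at 238, 284, 285 and 279 CPM in TECs and at 133 CPM at most elsewhere (log2 difference 2.39 ± 0.14, adjusted p = 1.56e-09). Usp18, the protease that removes ISG15 from proteins and restrains the type I receptor, stood at 112, 153, 70.3 and 91.0 CPM in TECs (log2 difference 2.38 ± 0.30, adjusted p = 6.62e-06). The 7 genes lower in TECs were Samd9l, Ddx58, Bst2, Stat2, Parp14, Trim30a and Ifit2. These counts depended on TEC cluster 1, a cluster described with the genotype result. Without it 21 genes were higher and 2 (Trim30a and Ifit2) were lower in TECs, and the shares of all genes called in that fit are not given here. The median log2 difference was then 0.61 in place of 0.19, and that over all genes 0.17 in place of 0.09. By edgeR 23 of the 33 genes had an unadjusted p under 0.05, as had 8545 of 14242 genes. The other 5 of the 7 genes were no longer called, and Samd9l (0.23) and Ddx58 (0.17) were then on the other side of 0.

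FBs and mural cells held lower levels. In FBs 1 gene was higher and 21 were lower, where 24.7% of all genes were higher and 20.1% lower. The gene higher in FBs was Trim30a, which encodes a ubiquitin ligase (97.0 to 152 CPM, log2 difference 0.56 ± 0.20, adjusted p = 0.0299). It was not called without WT 1 (adjusted p = 0.109), without Z/Z 1 (adjusted p = 0.195) or without Z/Z 2 (adjusted p = 0.173). In mural cells 1 gene was higher and 21 were lower, where 19.6% of all genes were called in each direction. Isg15, the ubiquitin-like modifier, was the gene higher in mural cells, at 385, 339, 696 and 591 CPM (log2 difference 1.02 ± 0.18, adjusted p = 0.000272). It was at the same time the gene lowest in FBs relative to the other lineages (-2.44 ± 0.21). The number called in FBs fell from 22 to 14 without Z/Z 1 and to 13 without Z/Z 2. What share of all genes was called in these fits is not given here. Highest mean levels lay in ECs for 26 genes and in TECs for 7, and no gene was highest in FBs or mural cells. In 11 of the 26 genes each EC library exceeded every sum of the other lineages, and 3 of the 7 did so in TECs. For the remaining genes, at least 1 sum of another lineage reached into the range of the highest lineage. How many of all genes were highest in, or set apart by, each lineage is not given here.

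Z/Z TECs carried more of several interferon-stimulated transcripts than WT TECs. Of the 33 genes, 14 were higher in Z/Z and 0 lower by edgeR's quasi-likelihood test of library sums, where 9.89% of 18854 genes were higher and 11.8% lower. The median log2 fold change was 0.64 over the 33 genes and 0.0 over all genes tested. Called genes included 5 of 6 interferon-γ-inducible GTPases, 2 of 4 transcription factors, 1 of 4 sensors, 1 of 2 genes of ISG15 conjugation, 1 of 10 antiviral effectors and 4 of 7 others. Summed over all 33 genes, TECs held 3628 and 4217 CPM in WT and 7527 and 8046 CPM in Z/Z. The mix of TEC clusters differed between the genotypes too, and it is described after the single genes.

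Among the GTPases, which attack membranes around intracellular microbes, Iigp1 was the most abundant transcript. It stood at 597 and 819.7 CPM in WT 1 and WT 2 and at 2695 and 2647 CPM in Z/Z 1 and Z/Z 2 (log2 fold change 1.92 ± 0.22, adjusted p = 0.00889). Gbp2, a guanylate-binding protein, stood at 109, 83.5, 343 and 408 CPM in the same order (1.95 ± 0.19, adjusted p = 0.00795). Both Z/Z libraries lay above both WT libraries for each of these genes. Irgm1, which regulates other immunity-related GTPases, stood at 121, 189, 468 and 428 CPM (1.54 ± 0.24, adjusted p = 0.0145). Gbp3 stood at 30.6, 38.4, 71.3 and 73.1 CPM (1.08 ± 0.18, adjusted p = 0.0167). Gbp7 rose too (1.43, adjusted p = 0.0192), and Igtp was at 0.87 on the log2 scale without being called (adjusted p = 0.0643). Reads of the close Gbp paralogs may have been divided or dropped at counting, and values of single Gbp genes are uncertain to that extent.

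Of the transcription factors, Stat2 and Irf1 rose. Stat2, a subunit of the complex that binds ISRE, stood at 45.2 and 46.3 CPM in WT and 118 and 112 CPM in Z/Z (1.33 ± 0.14, adjusted p = 0.00811). Irf1, which carries much of the response to interferon-γ, stood at 340.3, 381, 785 and 796 CPM in WT 1, WT 2, Z/Z 1 and Z/Z 2 (1.13 ± 0.15, adjusted p = 0.0102). Replicates of either gene lay close together and the genotypes apart. Irf9 (0.78, adjusted p = 0.0599) and Irf7 (0.43, adjusted p = 0.22) were not called.

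Isg15 stood at 179 and 222 CPM in WT TECs and at 458 and 526 CPM in Z/Z TECs (1.30 ± 0.17, adjusted p = 0.0106). Usp18, which removes ISG15, had a log2 fold change of -0.63 and was not called (adjusted p = 0.102). Among the sensors, Ddx58 (RIG-I, a sensor of viral RNA) rose by 0.64 on the log2 scale (adjusted p = 0.0357). Ifih1 (MDA5), which senses long double-stranded RNA, stood at 124, 155, 131 and 108 CPM with overlapping groups (-0.22, adjusted p = 0.417).

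Among the 10 antiviral effectors, Ifit3 rose (1.34, adjusted p = 0.0311). Its paralog Ifit3b shares sequence with it, and the division of reads between them is uncertain. Oasl2 stood at 272, 337, 351 and 343 CPM and was not called (0.19, adjusted p = 0.429). Ifit1, a sensor of viral RNA caps, stood at 247, 259, 329 and 381 CPM and was not called either (0.49, adjusted p = 0.0652). Oas2 had a log2 fold change of -1.40 (adjusted p = 0.0957), from counts that were low in all libraries.

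The group of other genes held the gene with the smallest p. Rtp4, a chaperone of receptors that restrains interferon responses, stood at 44.7, 45.5, 123 and 129 CPM (1.48 ± 0.14, adjusted p = 0.00765). Ifi27, which encodes a mitochondrial protein, stood at 173, 152, 392 and 489 CPM (1.44 ± 0.18, adjusted p = 0.00933). Parp14, a mono-ADP-ribosyltransferase, stood at 115, 101, 246 and 297 CPM (1.32 ± 0.16, adjusted p = 0.00941). In all 3 genes the lower Z/Z library exceeded the higher WT library by a wide margin. Xaf1, a promoter of apoptosis, rose by 0.64 on the log2 scale (adjusted p = 0.0368).

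**Figure D2:**
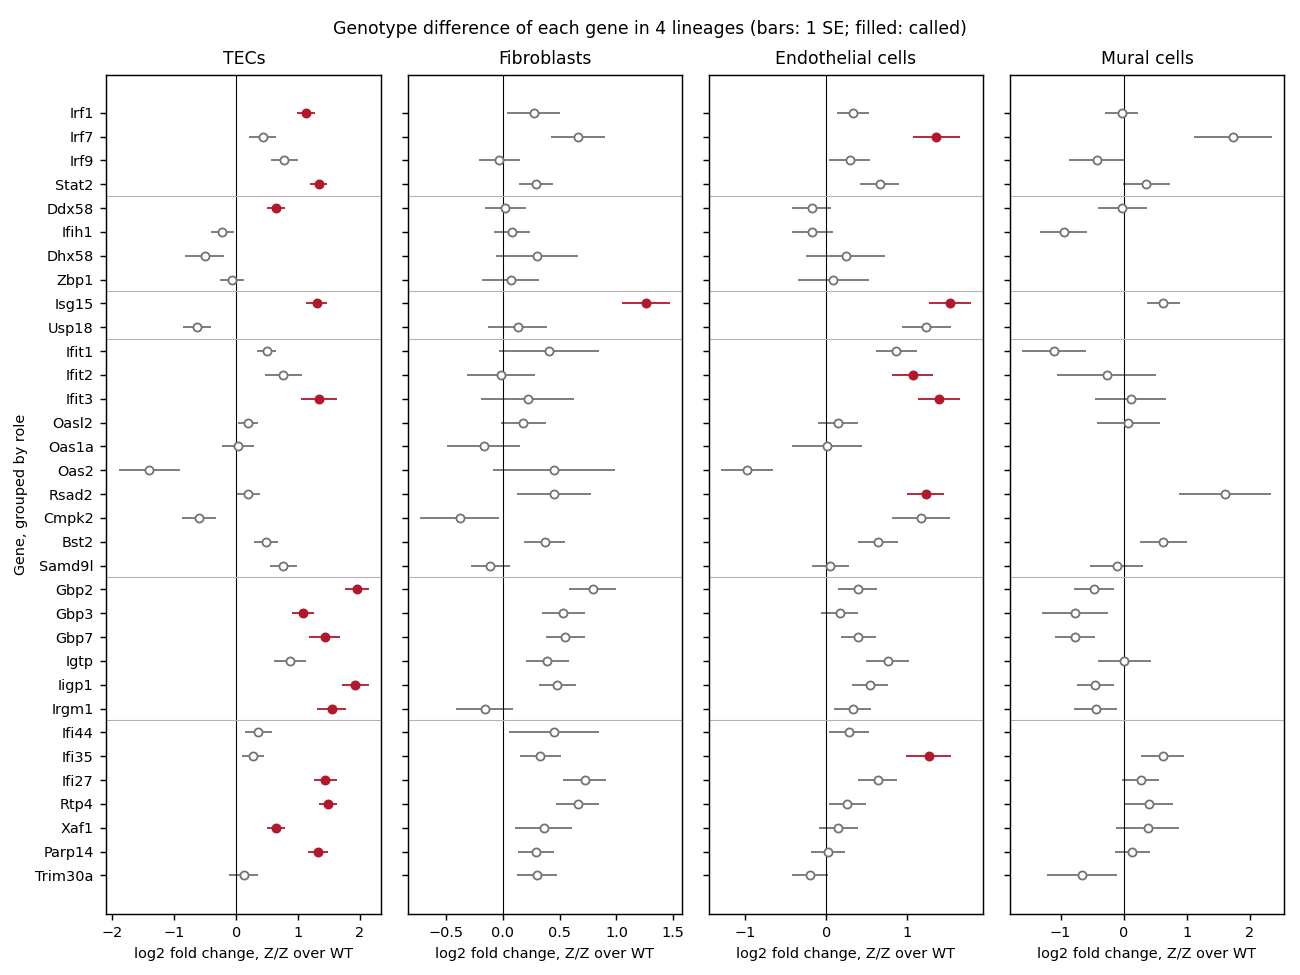
Log2 fold change of Z/Z over WT (horizontal axis, bars 1 SE) for each gene (vertical axis, grouped by role) in TECs, FBs, ECs and mural cells. Filled symbols are called at an adjusted p under 0.05, and there are 14 in TECs, 1 in FBs, 6 in ECs and none in mural cells. Axes differ between the panels.

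The number of calls in TECs varied with the library left out, and the share of all genes called in such fits is not given here. Without Z/Z 1 the test called 2 genes, Gbp2 and Ifi27, although the fold changes were about as large, with a median of 0.67 and, for example, 1.91 for Iigp1 (adjusted p = 0.0509) and 1.40 for Isg15 (adjusted p = 0.053). Without Z/Z 2 it called 9. Without WT 1 and without WT 2 it called 14 each time, of which 12 were among the 14 called with all libraries, and Ddx58 and Xaf1 were not. Of the calls without WT 1, Usp18 was lower in Z/Z. With only 2 libraries per genotype, an exact permutation test of a single gene could not go below p = 0.333. With each cell thinned to 2000 UMIs, 11 genes were higher and 1 was lower (Usp18) in Z/Z TECs, 10 of the 14 remained called and the median was 0.21. Isg15 (0.62, adjusted p = 0.0558), Ifit3 (0.70, adjusted p = 0.0936), Ddx58 (0.55, adjusted p = 0.121) and Xaf1 (0.23, adjusted p = 0.554) were then not called, and Rtp4 was called at 0.67. In droplets with at most 100 UMIs, the 33 genes summed to 1536 and 1142 CPM in WT and to 4842 and 5345 CPM in Z/Z, and after subtraction of this profile the number called in TECs was 14.

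TECs of the genotypes were made of different clusters. Clusters had been formed without the 33 genes and without the listed pathway and marker genes, although interferon-inducible genes outside those lists stood among the leading genes of some, such as Ubd in cluster 1, Ifi202b and Gm4841 in cluster 5 and Gm12185 in cluster 10. Cluster 1 held 50.6% and 47.6% of TECs in WT 1 and WT 2 and 3.07% and 5.38% in Z/Z 1 and Z/Z 2. It gave 60.2% of the TEC UMIs in WT and 9.14% in Z/Z. It was led by Ubd, Syt1 and Cd52 and carried Aire, the regulator of tissue-restricted antigens in medullary TECs, at 427 CPM, against 23.3 CPM at most in the other 10 clusters of 100 cells or more. Markers of myeloid cells, of which 12 were listed, summed to 517 and 1189 CPM in cluster 1 of WT and to 814 and 646 CPM in that of Z/Z, with 1 of the 12 (Siglech) at 0, and to 30.3 CPM at most in the other TECs, and their part in the values of cluster 1 was not tested.

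Interferon-stimulated genes were low in cluster 1. Their summed level was 2099 CPM there, against 11639 CPM in cluster 5, 11052 CPM in cluster 3, 9324 CPM in cluster 2, which was aaTEC1-like (age-associated TEC), and 8689 CPM in cluster 0, which was aaTEC2-like. Of 11 clusters with at least 100 cells, cluster 1 was the lowest for 14 of the 33 genes, and 11 of these 14 were among the genes called in TECs. For Iigp1 the level was 146 CPM in cluster 1 and 4544 CPM in cluster 5. Gbp2 was at 27.0 CPM in cluster 1 and at 706 CPM in cluster 3. Rtp4 was at 13.4 CPM in cluster 1 and at 185 CPM in cluster 2. Cluster 7, with few UMIs per cell, was low as well (2135 CPM) and was the lowest for 12 genes. Usp18 went the other way, with its highest level in cluster 1 (181 CPM). How often all genes were lowest in these clusters is not given here.

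**Figure D3:**
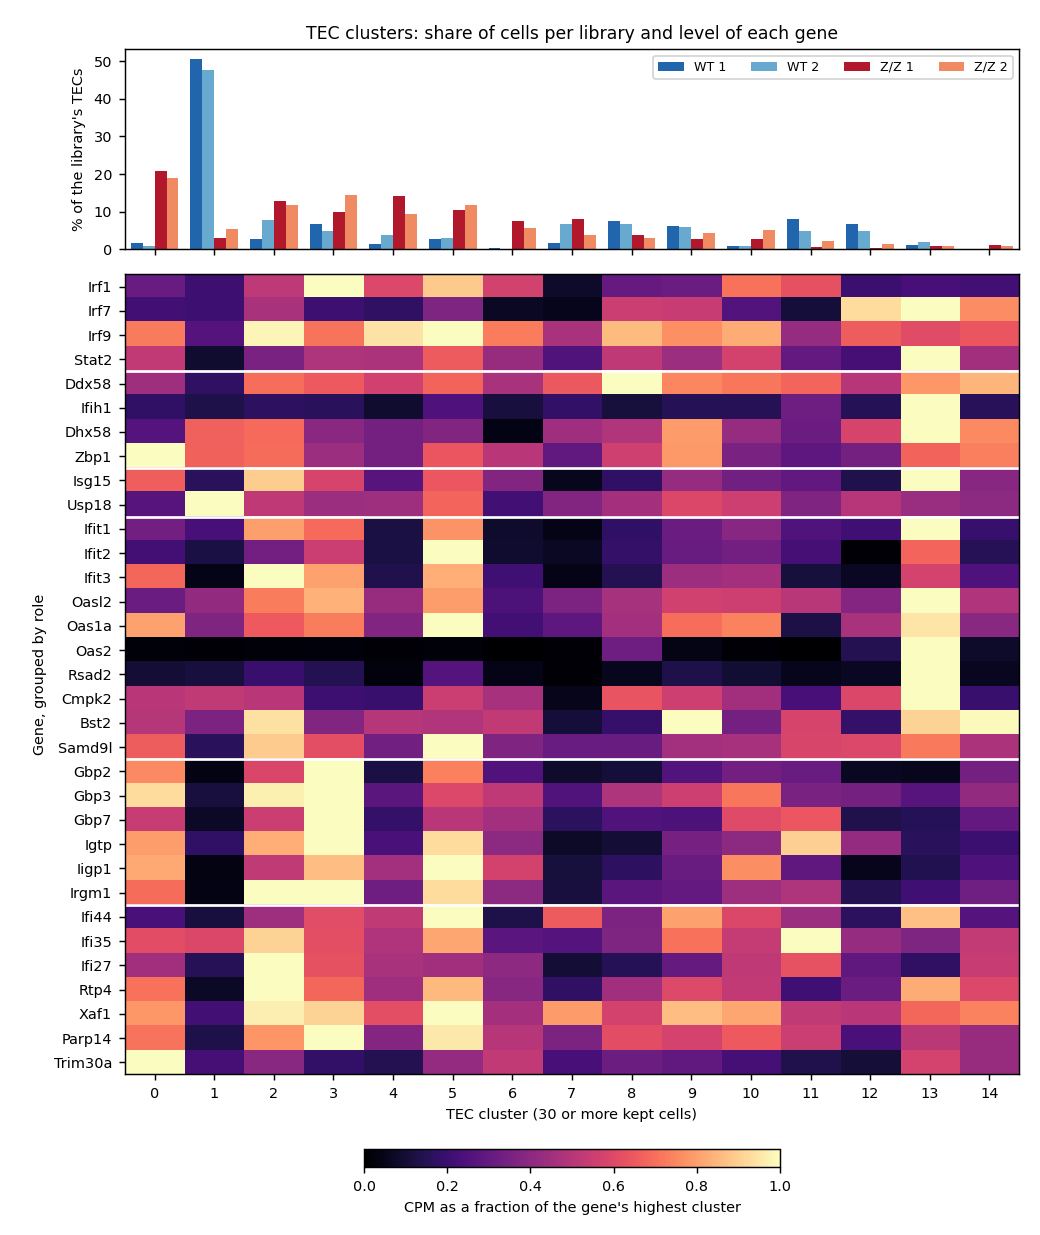
Top, share of each library's TECs in 15 clusters of 30 or more cells, and bottom, level of each gene in each cluster as a fraction of its highest cluster. Cluster 1 takes 50.6% and 47.6% of WT TECs and is dark for the GTPases, and clusters 0, 2, 3 and 5, which are larger in Z/Z, are bright for them.

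The same held within libraries. Between cluster 1 and all other TECs of the same library, 25 of the 33 genes were lower in cluster 1 in all 4 libraries, 1 (Usp18) was higher in all 4, and 7 were mixed. These are descriptions, since the clusters were formed from the same cells. The share of all genes that were lower in cluster 1 in all 4 libraries is not given here. Whether the count is particular to these genes was not tested.

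Without cluster 1, the genotype difference in TECs was smaller. None of the 33 genes was called higher and 1 was called lower by edgeR, where 1.18% of all genes were higher and 1.45% lower, and 11 genes had an unadjusted p under 0.05, as had 3485 of all 16461 genes. The median log2 fold change was 0.10, against 0.03 over all genes. Gbp2 then stood at 255 and 195 CPM in WT 1 and WT 2 and at 352 and 450.5 CPM in Z/Z 1 and Z/Z 2 (0.82 ± 0.22, adjusted p = 0.10). Iigp1 stood at 1377, 2014, 2779 and 2942 CPM (0.76 ± 0.25, adjusted p = 0.163). Isg15 stood at 274, 334, 469.8 and 567 CPM (0.78 ± 0.20, adjusted p = 0.0931). In these 3 genes the groups still did not overlap. Gbp3, at 64.3, 85.9, 72.8 and 79.7 CPM, did overlap (0.05 ± 0.20), and Ddx58 and Xaf1 were on the other side of 0 (-0.39 and -0.23). The gene called lower was Oas2, at 9.52 and 20.1 CPM in WT and 2.06 and 2.14 CPM in Z/Z (-2.66 ± 0.46, adjusted p = 0.0464).

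Cluster 1 was the only TEC cluster with at least 10 cells in each library, and within it 0 of 32 genes tested were called. In this cluster edgeR called 0% of 12687 genes, while 14.3% had an unadjusted p under 0.05, and so did 9 of the 32. Iigp1 stood at 109.5 and 114 CPM in cluster 1 of WT and at 253 and 239 CPM in that of Z/Z (1.14 ± 0.16, adjusted p = 0.266). Gbp2 stood at 17.8, 17.9, 47.9 and 53.9 CPM (1.51 ± 0.25, adjusted p = 0.266). These 2 GTPases lay higher in Z/Z, whereas 7 genes with an unadjusted p under 0.05 lay lower, namely Oasl2, Rsad2, Trim30a, Cmpk2, Ifit1, Ifit2 and Oas1a. Rsad2, for example, stood at 99.2, 174, 45.6 and 56.7 CPM in cluster 1 (-1.39 ± 0.33, adjusted p = 0.274). When 13 clusters were given equal weight in each library, 0 of the 33 genes were called by limma, 6 had an unadjusted p under 0.05, as had 1989 of 18854 genes, and the median was -0.27. Several of the 13 clusters had 5 cells or fewer in WT 2, clusters 0 and 10 only 1 cell each, and such cells then carried the weight of a whole cluster.

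**Figure D4:**
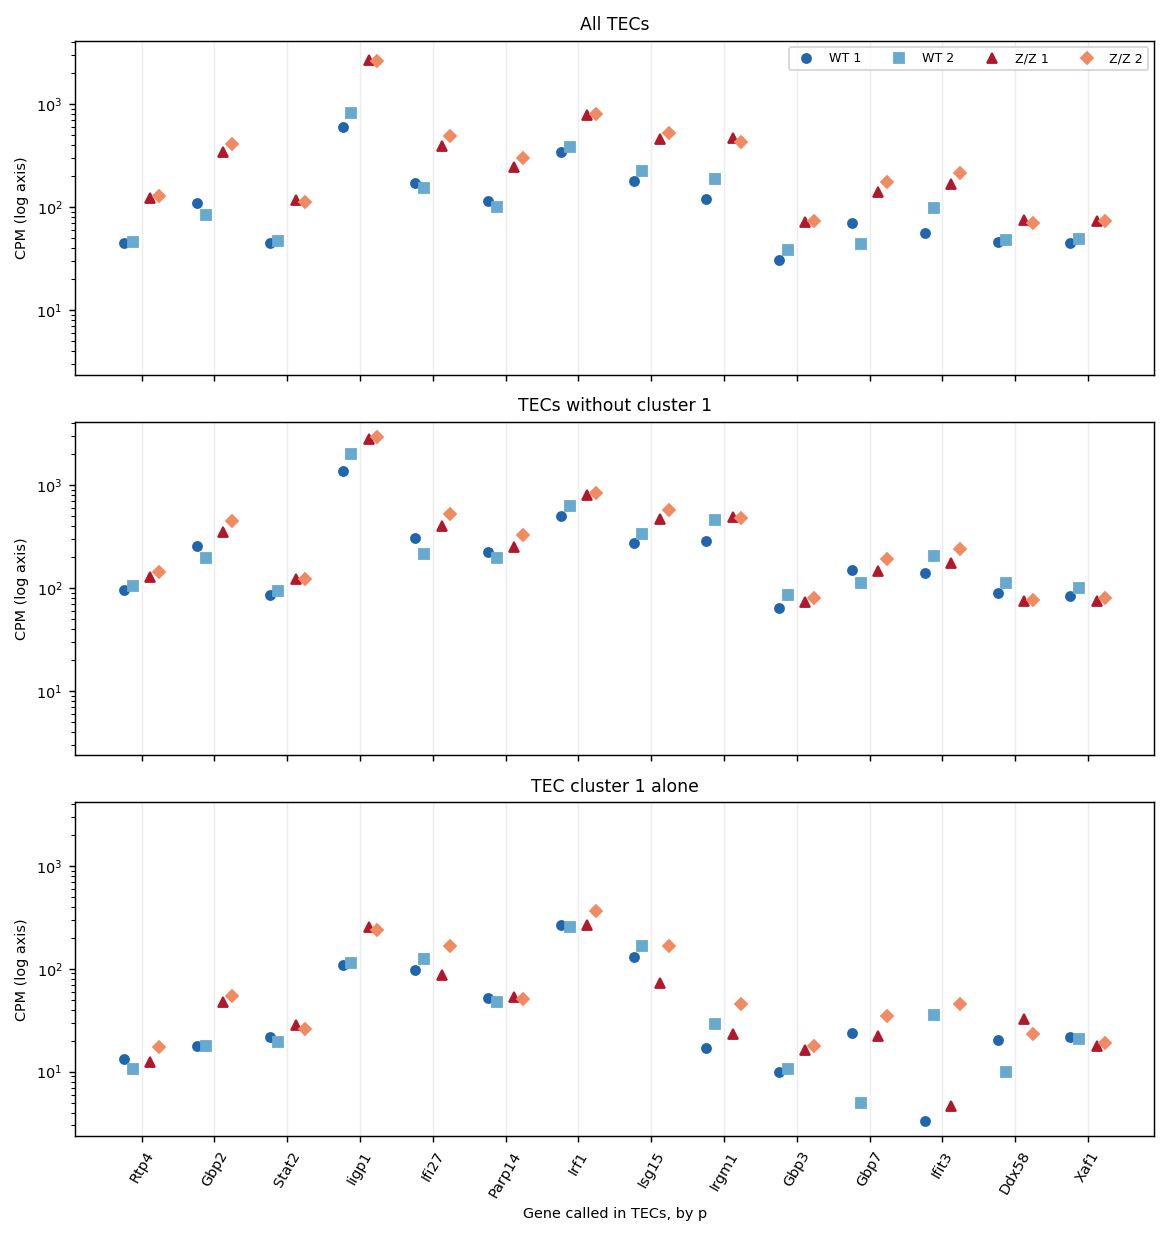
CPM (log axis) per library of the 14 genes called in TECs, in all TECs (top), in TECs without cluster 1 (middle) and in cluster 1 alone (bottom). The genes were chosen by the test of the values in the top panel, so that the gap between genotypes there is part of that choice. The gap is smaller or absent for most of them below.

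**Figure D5:**
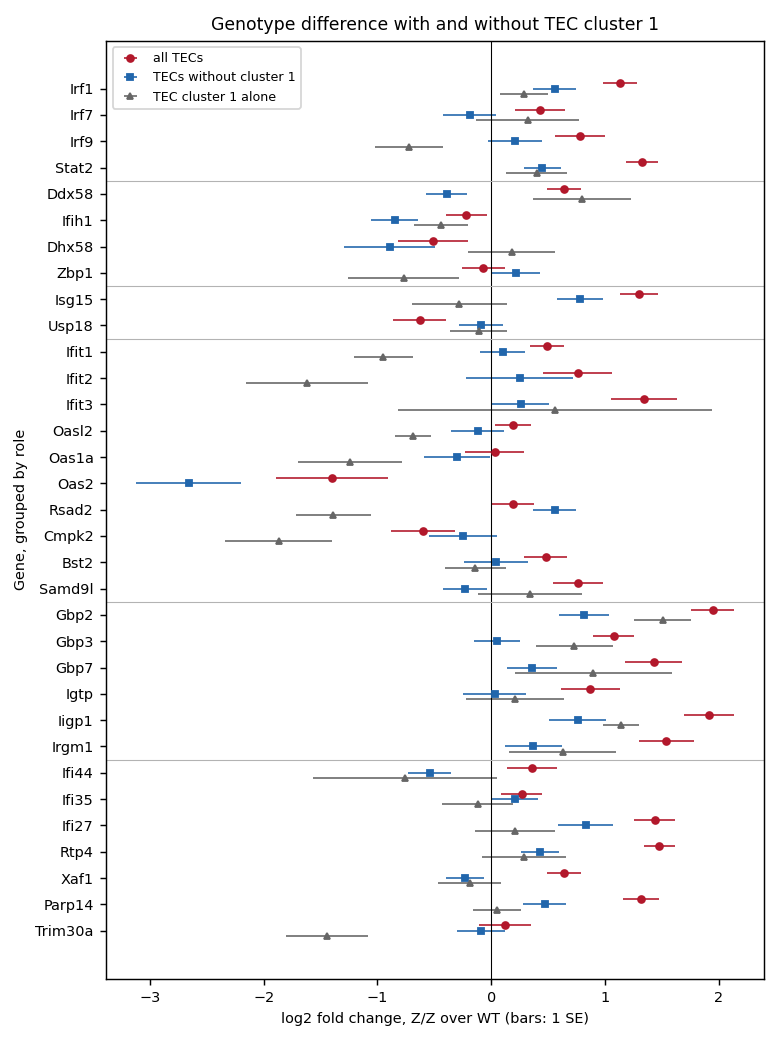
Log2 fold change of Z/Z over WT (horizontal axis, bars 1 SE) of each gene tested (vertical axis) in all TECs, in TECs without cluster 1 and in cluster 1 alone. All TECs have a median of 0.64, TECs without cluster 1 of 0.10 and cluster 1 alone of -0.03.

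Immediate early and heat shock transcripts, which mark stress or dissociation, moved with the genotype in TECs as well. The 11 genes of that list summed to 8559 and 10625 CPM in WT and 21538 and 19422 CPM in Z/Z, and 9 of the 11 were higher in both Z/Z libraries, with none at 0. The share of all genes higher in both Z/Z libraries is not given here. By edgeR 7239 of the 18854 genes tested in TECs had an unadjusted p under 0.05. Without cluster 1 the sums were 13610, 18234, 22557 and 21166 CPM, and within it 5163, 5999, 6527 and 6945 CPM. Myeloid markers summed to 319 and 745 CPM in WT TECs and to 67.3 and 106 CPM in Z/Z TECs, with none of the 12 at 0. The part of these transcripts in the TEC result was not tested.

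The interferon pathway around these genes was read from a list of 119 further genes, of which 115 had a row. In TECs 93 were tested, 26 were higher in Z/Z and 11 lower, beside 9.89% and 11.8% of all genes, so that the share lower was that of all genes. Without cluster 1, 89 were tested, and Slfn9, a Schlafen gene, was the only one called (1.30, adjusted p = 0.0427). Of all genes 1.18% were then higher and 1.45% lower, so that this single call was near the background.

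Ligands were scarce, and 12 of 21 had no UMI in TECs. The UMIs of the interferon-λ genes Ifnl2 and Ifnl3 stood in cluster 1, which held 56 of the 57 UMIs of Ifnl2 and 112 of the 113 of Ifnl3. Ifnl3 had 83 and 28 UMIs in TECs of WT 1 and WT 2 and 0 and 2 in those of Z/Z 1 and Z/Z 2 (edgeR adjusted p = 0.0104). Per UMI of TECs this was 146-fold more in WT than in Z/Z, with a 95% counting interval of 39.5 to 1220. Ifnl2 had 44, 9, 0 and 4 UMIs (adjusted p = 0.0292), a ratio of 34.9 (12.8 to 133). Within cluster 1 the ratios were 44.3 (7.8 to 1770) for Ifnl3 and 7.06 (2.29 to 35.3) for Ifnl2, and neither passed edgeR's test there (adjusted p = 0.266 and 0.337). The intervals cover counting error only, and the 2 genes are close copies whose reads may be mixed. Ifnb1, which encodes interferon-β, had 1 and 15 UMIs in WT and 37 and 11 in Z/Z, 27 of the 64 in cluster 1, and Ifng, which encodes interferon-γ, had 11 in WT 1 and 0 in the other libraries.

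Receptor genes changed in both directions in TECs. Ifnlr1, the specific chain of the interferon-λ receptor, stood at 11.3, 10.9, 33.9 and 31.7 CPM (1.56 ± 0.20, adjusted p = 0.00959). Ifnar2, a chain of the type I receptor, stood at 70.5, 95.2, 189 and 189 CPM (1.20 ± 0.18, adjusted p = 0.0136). Ifngr2, a chain of the interferon-γ receptor, fell, from 87.4 and 101 CPM to 54.4 and 53.8 CPM (-0.79 ± 0.15, adjusted p = 0.0218). The other chains were not called, with log2 fold changes of 0.38 for Il10rb (adjusted p = 0.124), 0.32 for Ifngr1 (adjusted p = 0.349) and -0.07 for Ifnar1 (adjusted p = 0.834). Without cluster 1 none of the receptors was called, Ifnar2 among them (adjusted p = 0.16).

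Of 8 kinases and transcription factors tested in TECs, Irf5 was called, lower in Z/Z (33.7, 37.1, 5.18 and 5.78 CPM, -2.69 ± 0.22, adjusted p = 0.00708). Negative regulators were called in 4 of 6 cases. Socs3, an inhibitor of cytokine receptors, stood at 152, 130.2, 867 and 535 CPM (2.31 ± 0.27, adjusted p = 0.00895), while Socs1, which inhibits JAK kinases, fell by 1.16 on the log2 scale (adjusted p = 0.0261). Samhd1 and Ptpn11 rose. Among 7 adaptors and kinases of nucleic acid sensing tested, Myd88 rose by 1.27 and Ikbke fell by 0.96 on the log2 scale. Of 63 further interferon-stimulated genes tested, 20 rose and 5 fell, where 9.89% of all genes were higher and 11.8% lower. Irgm2 (1.79), Slfn9 (2.30), Gbp5 (1.30), Ifi47 (1.32) and Slfn8 (1.45) had the smallest p. The share of the 63 that fell was not above that of all genes. Single calls among the 8 kinases and transcription factors, and in each direction among the 7 adaptors and kinases, were near the background.

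In ECs too, genes were higher in Z/Z. By the same edgeR test 6 of 33 genes were higher and 0 lower, where 1.08% of all genes were higher and 1.06% lower, and 15 had an unadjusted p under 0.05, as had 2140 of 11429 genes. Of the 6, Isg15 and Ifit3 were called in TECs too, and the test of TECs against the other lineages called a difference in fold change for Irf7 alone. The 6 were Isg15, 3 of 10 antiviral effectors, 1 of 4 transcription factors and 1 of 7 others, and 0 of 6 GTPases. The median log2 fold change was 0.33, against 0.02 over all genes. Isg15 stood at 412 and 273 CPM in ECs of WT 1 and WT 2 and at 827 and 1230 CPM in those of Z/Z 1 and Z/Z 2 (1.53 ± 0.26, adjusted p = 0.0159). Rsad2 stood at 293, 227, 550.1 and 703 CPM in the same order (1.23 ± 0.23, adjusted p = 0.0203). Ifit3, which stabilizes IFIT1, stood at 45.7, 36.1, 103 and 124 CPM (1.39 ± 0.26, adjusted p = 0.0220). In each of these genes Z/Z 2 was the highest library and WT 2 the lowest. The WT 2 values rest on 53 UMIs of Isg15, 44 of Rsad2 and 7 of Ifit3.

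Irf7, the transcription factor that amplifies type I interferon production, stood at 51.1, 36.1, 99.6 and 144 CPM in ECs (1.36 ± 0.29, adjusted p = 0.0357). Ifi35 stood at 89.2, 51.6, 155 and 224 CPM (1.27 ± 0.28, adjusted p = 0.0414). Ifit2 stood at 169, 159.9, 278 and 416 CPM (1.07 ± 0.25, adjusted p = 0.0476). The WT 2 values rest on 7 UMIs of Irf7, 10 of Ifi35 and 31 of Ifit2, and are uncertain to that extent. Usp18 was near the threshold without passing it (1.24, adjusted p = 0.0557). The genes highest in ECs without a call were Iigp1, at 2743, 2306, 3203 and 4133 CPM (0.54, adjusted p = 0.209), Irf1 (679, 733, 812 and 956 CPM, 0.33, adjusted p = 0.402) and Parp14 (633, 717, 598 and 764 CPM, 0.02, adjusted p = 0.971). Parp14 overlapped between genotypes, and the other 2 did not.

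The number of calls in ECs varied with the library left out too, again without the share of all genes called beside it. Without Z/Z 2 only Isg15 was called, with fold changes of 1.11 for Irf7, 1.03 for Ifi35, 1.06 for Rsad2, 1.28 for Ifit3 and 0.76 for Ifit2 on the log2 scale. Without Z/Z 1 all 6 were called, without WT 1 there were 9 calls and without WT 2 10. Thinning to 2000 UMIs left Isg15 and Rsad2 called, with 0.83 for Irf7. After subtraction of the empty-droplet profile Isg15, Rsad2 and Ifit3 were called, while the fold changes of Irf7 (1.38, adjusted p = 0.0508), Ifi35 (1.31, adjusted p = 0.0576) and Ifit2 (1.09, adjusted p = 0.0669) were about as before. Of the pathway list 83 genes were tested in ECs, and 2 were higher, beside 1.08% of all genes, namely Oasl1 (1.19, adjusted p = 0.0476) and Trim25 (1.09, adjusted p = 0.0281), named here after their values were seen. Immediate early and heat shock genes summed to 12096 and 11721 CPM in WT ECs and 16014 and 13925 CPM in Z/Z ECs, and their part was not tested.

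In FBs Isg15 was the gene called. It stood at 57.7 and 38.4 CPM in WT 1 and WT 2 and at 128 and 108 CPM in Z/Z 1 and Z/Z 2 (1.26 ± 0.21, adjusted p = 0.0116). This was 1 of 33 genes by edgeR, where 1.82% of all genes were higher and 1.31% lower, a share near the background. With Isg15, 8 of the 33 genes had an unadjusted p under 0.05, as had 2510 of 13871 genes, and the median was 0.30 against 0.01 over all genes. Without WT 2 the adjusted p of Isg15 was 0.0733 and no gene was called. Without WT 1 there were 2 calls, Ifit1 and Isg15, and without Z/Z 1 there were 2, Gbp2 and Isg15. Of the genes with higher levels, Iigp1 stood at 619, 702, 934 and 907 CPM (0.48, adjusted p = 0.159) and Ifi27 at 142, 99.9, 188 and 215 CPM (0.72, adjusted p = 0.0802) without overlap between genotypes. Irf1 did overlap, at 254, 404, 442 and 350.3 CPM (0.27, adjusted p = 0.582). Of the pathway list 84 genes were tested in FBs, 6 were higher in Z/Z, beside 1.82% of all genes, and 1 was lower, beside 1.31%. The latter was the kinase Jak2 (-0.68, adjusted p = 0.0486), named here after its value was seen.

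In mural cells 26 genes were tested and none was called by edgeR, where 0.0581% of all genes were higher and 0.0116% lower. Of the 26, 5 had an unadjusted p under 0.05, as had 8.87% of all genes, and DESeq2 gave 0 calls and 0 genes with an unadjusted p under 0.05. Without WT 2, which had 11 mural cells, 1 gene (Ifit1) was called. Dhx58, Zbp1, Usp18, Oas1a, Oas2, Cmpk2 and Ifi44 had too few UMIs to be tested. Isg15 stood at 355, 361, 589 and 514 CPM (0.63 ± 0.26, adjusted p = 0.503). Iigp1, at 828, 1384, 870.3 and 726 CPM (-0.45 ± 0.29, adjusted p = 0.695), and Irf1, at 579, 573, 520.5 and 611 CPM (-0.03 ± 0.26, adjusted p = 0.993), overlapped between genotypes.

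The genotype difference itself differed between lineages for some genes. The effect in TECs minus the mean effect in the other 3 lineages was tested by edgeR over all libraries with the library as a block, and 9 of 33 genes were higher and 2 lower, where 5.74% of all genes were higher and 8.28% lower. The median over all genes was -0.19 and that over the 33 genes 0.23. The 9 genes with a larger rise in TECs included 4 GTPases, Gbp2 (1.53 ± 0.22, adjusted p = 0.000324), Iigp1 (1.54 ± 0.26), Irgm1 (1.51 ± 0.28) and Gbp7 (1.15 ± 0.23). The 2 with a smaller effect in TECs were Irf7 (-1.06 ± 0.28, adjusted p = 0.0172) and Usp18. Usp18 had 0 UMIs in mural cells of both WT libraries and Irf7 in those of WT 2, so that the size of either difference depends on how the fit treats 0. For Irf7 it was -4.24 without WT 1, and Irf7 was not called without Z/Z 1 (adjusted p = 0.262) or without Z/Z 2 (adjusted p = 0.127). Without cluster 1 in the TEC sums, 2 of 33 genes were called, where 3.44% of all genes were called in either direction, namely Irf7 (-1.62, adjusted p = 0.0032) and Usp18 (-3.58, adjusted p = 0.0271). With cluster 1 kept, fewer genes were called without Z/Z 1 or without Z/Z 2 than with all libraries. What share of all genes was called in those fits is not given here.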

How the data were processed

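Single CD45- thymic cells of 4 libraries were profiled by 10x Genomics Chromium 3′ RNA-seq. The authors made the deposited UMI counts per gene and barcode with Cell Ranger (version 7.01 in the submitters' processing notes) on the mm10 genome, and the counts were not normalized. The deposited matrices for called barcodes (13981) and for all barcodes were used. Counts were taken from 3′ ends and are not scaled by transcript length, so that levels were compared within a gene. The labels give the sex as male in one field and female in the protocol, and this was not resolved.

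Cells with more than 1000 genes and under 20% mitochondrial UMIs were kept, 111 ribosomal and haemoglobin features were dropped, and the 3.9% of cells with the highest Scrublet score per library were removed (399 cells, scanpy 1.11.5), because the automatic threshold marked 0.127%. The cells left (9846) were clustered (3500 variable genes, leidenalg 0.10.2, resolution 1) with the 33 genes, the pathway list and the markers, 263 genes in all, held out. Lineages and epithelial classes were rebuilt from markers and may differ from the study's. A class name needed at least 3 markers detected in 20% of the cells, and other clusters were left unnamed. The thresholds for Epcam, Vim and Pdgfra that separate aaTEC2-like cells from FBs were set after seeing the data.

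UMIs were summed per library and lineage and tested with edgeR 4.0.16 (R 4.3.3) by the two-sided quasi-likelihood F test, after TMM scaling and the filterByExpr filter. A gene was called when its p, adjusted by Benjamini-Hochberg over all genes tested, was under 0.05. SE is the fold change divided by the square root of F. CPM values use TMM factors, except those of clusters and of empty droplets, which are scaled by their UMI total alone. In levels across lineages, factors were fitted over all 16 sums, so that CPM values there differ from those within a lineage. Fold changes are Z/Z over WT. Alternatives were DESeq2 1.42.0, RLE factors, no count filter, a replicate block, each library left out, thinning to 2000 UMIs, subtraction of the profile of droplets with at most 100 UMIs, shared barcodes once, stricter cell limits (more than 1500 genes, under 10% mitochondrial UMIs), doublets kept, and equal cluster weights (limma 3.58.1, log2 CPM with a pseudocount of 1). Leaving out cluster 1, cluster 15 or the aaTEC2-like cells was chosen after seeing the data.

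The members, lists and comparisons were chosen with earlier results of these data known. Named genes are at most the 10 called genes with the smallest p per lineage, the 3 genes with the highest mean CPM not called there, in lineage contrasts the 3 with the largest positive fold, all ligands and receptors that results turn on, and of each other pathway role at most 5 with the smallest p in TECs. Exceptions are marked as named after their values were seen, and members outside these limits appear with a fold change or in a list. The tests were also run on simulated counts, and the outcome is not given here. The simulated counts had a common dispersion for all genes of a fit, no difference in cluster mix and no shared barcodes. UMI sums of TECs ranged from 2308227 in WT 2 to 20295676 in Z/Z 1, and of mural cells from 115103 in WT 2 to 2516084 in Z/Z 1. Promoter sequences are from RefSeq (GRCm38.p6). No protein or genome sequence was used here. One gene of the pathway list is not reported here by name.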

Additional observations from a re-analysis of the deposited data

Results flagged for a closer look

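The genotype effect in TECs differed from the mean effect in the other 3 lineages for 11 genes, by edgeR's test of that difference (adjusted p under 0.05). The log2 difference was 1.54 for Iigp1, 1.53 for Gbp2, 1.51 for Irgm1, 1.15 for Gbp7 and 0.96 for Gbp3 among the GTPases. It was 0.98 for Parp14, 0.84 for Rtp4, 0.76 for Irf1 and 0.65 for Ifi27. It was -1.06 for Irf7 and -4.21 for Usp18, the latter with 0 UMIs in mural cells of both WT libraries. The 9 positive differences were all lost without TEC cluster 1, and the cause was not tested. No group held 4 samples, so that single libraries could not be examined as outliers.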

How the results depend on the processing

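With the libraries left out in turn, edgeR called 2 to 14 genes in TECs (14 with all), 0 to 2 in FBs (1 with all), 1 to 10 in ECs (6 with all) and 0 to 1 in mural cells (0 with all). The lineage contrast of FBs then gave 13 to 20 calls (22 with all) and the difference of genotype effects between TECs and the other lineages 4 to 10 (11 with all). Without TEC cluster 1 the calls were 1 in TECs and 2 for that difference, in which Gbp3 (-0.02) and Rtp4 (-0.15) turned sign. Equal cluster weights gave 0 calls in TECs. In FBs DESeq2 gave 3 calls, no filter on low counts 6 and thinning 2. In ECs no filter gave 11 calls, thinning 2 and subtraction of empty droplets 3. Thinning gave 7 for the difference between lineages. DESeq2 gave 18 calls in TECs and 6 in ECs. Shares of all genes called under these settings are not given here. Whether a change in number is particular to the members was not tested.

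Signs turned in TECs for Oasl2 when thinned (-0.12), without cluster 1 (-0.12) and with equal weights (-0.23), and for Ifit1 when thinned (-0.17) and with equal weights (-0.51). Without cluster 1, Ddx58 (-0.39) and Xaf1 (-0.23) turned, and with equal weights Ddx58 (-0.45), Xaf1 (-0.59), Gbp7 (-0.0027), Gbp3 (-0.69), Irgm1 (-0.058), Rtp4 (-0.22) and Ifit3 (-0.66). Values near 0 also turned. Irf1 in FBs ranged from -0.0047 to 0.65 with libraries left out. Parp14 in ECs ranged from -0.17 to 0.18 and was -0.0071 with strict cells and -0.018 with doublets kept. Irf1 in mural cells ranged from -0.13 to 0.092, and was 0.094 without a filter and 0.003 with doublets kept. The cause was not tested. In the equal weights, clusters 0 and 10 had 1 cell each in WT 2. Without the aaTEC2-like cells or without cluster 15 the TEC calls were 14 each.

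The replicate numbers share only a number. Deviations of same-numbered libraries correlated at -0.0927 in TECs, -0.0583 in FBs, -0.00701 in ECs and -0.0293 in mural cells. With the replicate number as a block, 13 genes were called in TECs, 12 of them among the 14, and 2 in FBs, 6 in ECs and 0 in mural cells. With 2 libraries per genotype, small differences were not detectable.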
